A study of Mus musculus with 12 samples.

Results

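The cells described here are 250 cells of mouse small intestinal epithelium that carried Meis2 and scored highest for Meis2, Onecut2, Slc1a3, Rflnb and Dmbt1. They were taken from a droplet single-cell RNA table of 27881 cells and 20090 genes. A cell qualified when Meis2 was above 0 and when S100g, Cdt1 and Hist1h1b were all at 0. These zeros leave out calcium-binding duodenal enterocytes (S100g), cells licensing replication origins (Cdt1) and cells making S-phase histones (Hist1h1b). Of 2199 cells with Meis2, 683 passed, and the 250 with the highest mean log1p(10000 × value / cell total) over the 5 markers became the members, 0.897% of all cells.

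The study profiled 12 samples, of which the 8 of the diet group hold the cells used here. These were sorted epithelial cells (CD45-, EpCAM+) from adult mice of the Lgr5DTR-GFP strain, a reporter line for the stem cell gene Lgr5. All 8 samples and all cells compared share this strain, age and sort, and the labels do not say which diet each sample had. Each intestine was cut into 30 equal pieces whose cells were tagged before pooling, but the table used here holds no segment of origin. Cells could be split by the number that ends each barcode into 8 barcode sets. Those numbers were not matched to samples, so the whole table counts as 1 pooled sample and no test was possible. The spread over barcode sets is given instead. It is not a measure of replicate error, since the sets may differ in diet.

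Small intestinal crypts hold stem cells and their dividing daughters, the transit-amplifying cells, which give rise to absorptive enterocytes and secretory cells. The same epithelium is specified differently along its length, with the factors Pdx1 and Gata4 marking the proximal end. Meis2 is a TALE homeobox protein that binds DNA together with PBX and HOX partners. Onecut2 is a cut-homeodomain factor known for duodenal expression in the mouse. Slc1a3 is a glutamate and aspartate transporter, Rflnb (refilin B) binds filamins, and Dmbt1 is a secreted scavenger-receptor protein of mucosal surfaces.

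The marker values chose the members and are given only as a description. Levels are in ppm and give a gene's part of all summed values in a group of cells. Meis2 was present in all 250 members, with a per-cell level of 115 to 3150 ppm and a median of 404 ppm. Onecut2 was present in 236 members and Dmbt1 in 248, while Slc1a3 and Rflnb were each present in 105. All 5 markers were present together in 30 members, 4 in 135, 3 in 84 and 2 in 1. Dmbt1 was the most abundant marker, with a median of 4155 ppm and a highest value of 33962 ppm. The score was 1.279 in the last cell taken and 1.277 in the first cell left out, so the boundary falls within a continuous range.

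The 433 other cells that passed the same zeros are given for description, since the score itself used Onecut2. They had Onecut2 in 39.5% of cells against 94.4% of members. Their Fabp1, a fatty-acid-binding protein of enterocytes, was 6293 ppm against 1306 ppm in members. Neither Meis2 nor Onecut2 was limited to the members. In the 250 cells with the highest S100g and Reg1, called duodenal enterocytes here, Meis2 was present in 80.8% and Onecut2 in 94.0%. In the 250 cells highest for Gkn3, Lgr5, Ascl2, Smoc2 and Olfm4 with Meis2 at 0, called Gkn3 stem cells here, Onecut2 was present in 40.0%.

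Barcode sets gave very different numbers of members. Members made up 2.62% of cells in set 2 (95% interval 2.18 to 3.12) and 1.48% in set 3 (1.11 to 1.93), but 0.0437% in set 4 (0.00111 to 0.243). The remaining sets lay between 0.136% and 0.724%. These are exact Clopper-Pearson intervals and cover counting error only. Set 2 alone supplied 120 of the 250 members and set 3 another 53. The share of cells with any Meis2 varied less, between 5.42% and 12.5%, and was also highest in set 2. Median detected genes per cell ran from 1693.5 to 2576 over the sets, and set 4, with 1 member, had the lowest. Whether depth bears on the share of members was not tested.

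**Figure D1:**
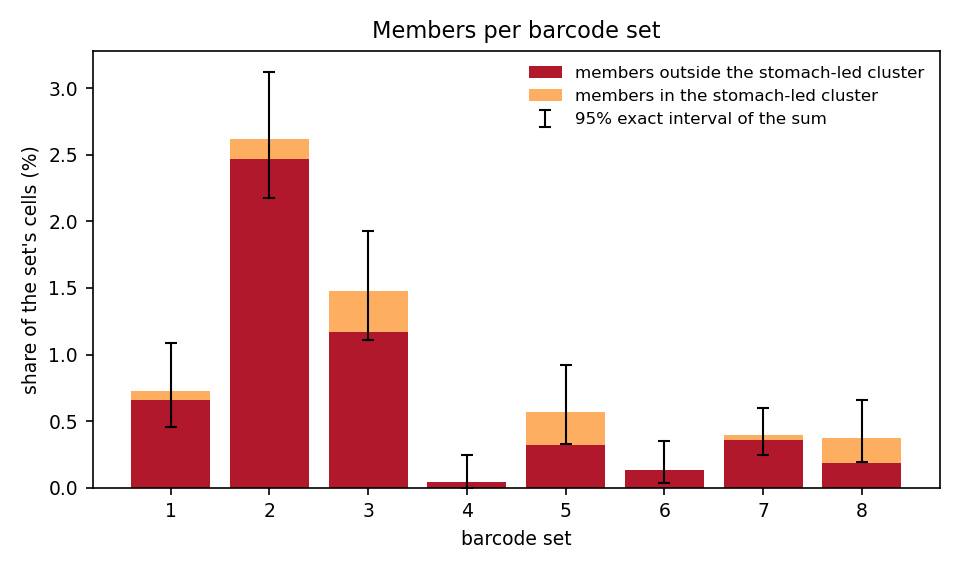
Share of each barcode set's cells that were members, in %, with the 95% exact interval of the total; orange marks members that fell in the stomach-led cluster described next. Set 2 reached 2.62% and set 3 1.48%. As a part of each set's members, orange was largest in sets 5 (7 of 16) and 8 (6 of 12).

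The label of the members as crypt progenitors was checked against marker genes, and part of the members went against it. All cells were clustered on variable genes without the 8 genes of the rule. A cluster of 160 cells led by Tff1, Gkn2, Gkn1, Muc5ac and Tff2, secreted products of the gastric surface epithelium, held 35 of the 250 members (14%, 95% interval 9.95 to 18.9). The highest scores of all members, 2.396, 2.338, 2.314, 2.304 and 2.287, belonged to cells of this cluster. Its share was thus not even over the score. The same 160 cells came together at clustering resolutions 0.5, 1 and 2. Meis2 was present in 78.1% of the cluster and Onecut2 in 63.8%. It is called the stomach-led cluster here, and the main counts and lists are given with and without its 35 members.

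Within those 35 members, 21 had more than 5000 ppm over the 10 stomach genes. In these 21 cells Tff1 was 65526 ppm, Gkn2 36069 ppm, Gkn1 29926 ppm and Tff2 15946 ppm (in 21 of 21 cells), and Lgr5 and Cdx1 were at 0. The other 14 had less of those products: Tff1 was 61.1 ppm, Tff2 745 ppm (in 7 of 14 cells) and Ctse 159 ppm (in 6), and Gkn1 and Muc5ac were at 0. They were led by Clu (3836 ppm, in 14 of 14 cells), Ly6d (1087 ppm), Wfdc18 (1258 ppm), Plet1 (647 ppm) and Bicc1 (501 ppm). Dmbt1 reached 16749 ppm and Onecut2 1967 ppm in these 14 cells, against 4764 and 591 ppm in the 215 members outside the cluster. Gata4 was 36.6 ppm and Cdx1 12.2 ppm in them, against 386 and 119 ppm in the 215, so these 14 cells are left without a cell type name. Onecut1, a family member of Onecut2, was present in 8 of the 14 and in 0 of the 215, which allows a share of cells with a value of up to 1.40% and sets no limit on cells expressing it.

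The 215 members outside the cluster had almost none of the gastric products. Ctse and Muc5ac were in 0 of 215 cells, and their summed stomach list never passed 694 ppm in a cell, with a median of 0. Their pooled stomach list was 75.04 ppm, against 60.2 ppm in their matched cells. Other cell types were scarce too: the 215 had 3.23 ppm over 6 stromal genes, 10.5 ppm over 10 immune genes and 9.68 ppm over 3 endothelial genes, against 4.69, 3.12 and 8.59 ppm in matched cells. No member was called a doublet. The caller marked only 45 cells, 0.161% of the table, and so did not work as a doublet filter. One barcode sequence of a member recurred in another set, among 80 such repeats in the table.

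**Figure D2:**
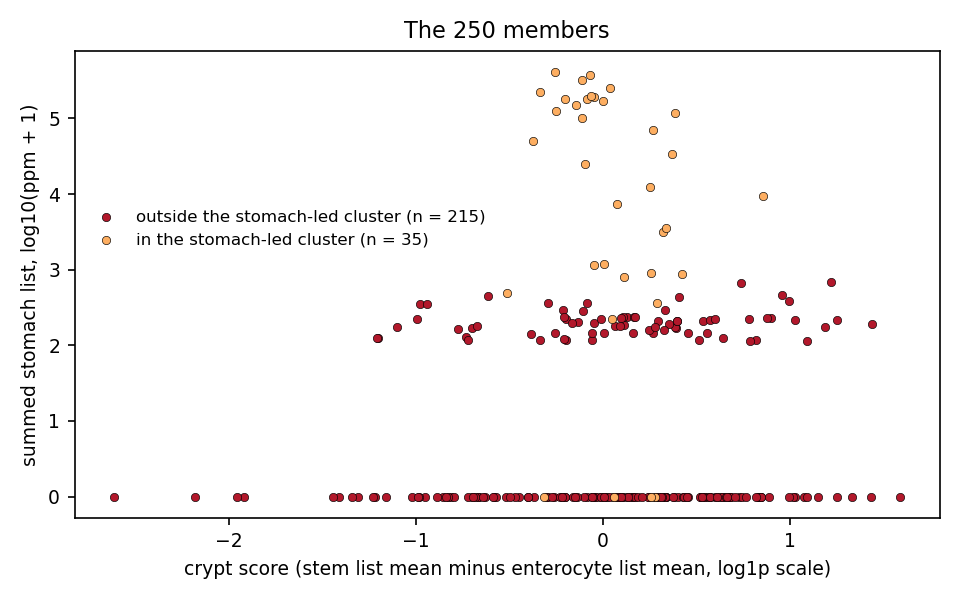
Each point is 1 of the 250 members: the crypt score on the x axis (mean of 22 stem cell genes minus mean of 18 enterocyte genes, log1p scale) and the summed level of 10 stomach genes on the y axis, as log10(ppm + 1). The 35 orange members of the stomach-led cluster include all members above 1000 ppm, and the 215 red members reach at most 694 ppm across the whole range.

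The median crypt score of members lay between those of the Gkn3 stem cells and the duodenal enterocytes, whose choice used genes of the score. The score is the mean over 22 stem cell genes minus the mean over 18 enterocyte genes, on the log1p scale. Its median was 0.097 in members, against 1.12 in Gkn3 stem cells, -0.33 in all other cells and -2.49 in duodenal enterocytes. The lower and upper quartiles of the members were -0.26 and 0.50. Apoa1, an apolipoprotein of enterocytes, was 150.04 ppm in members and 3437 ppm in all other cells, and Fabp2 was 426 and 4392 ppm. Of 9545 genes considered, 129 were called higher (1.35%) and 357 lower (3.74%) in members than in all other cells. The call rule is given with the matched comparison. Among the lower were 14 of 18 enterocyte genes. Of 20 stem cell genes considered, 2 were called higher (Gkn3 and Prom1) and 2 lower (Lgr5 and Tnfrsf19), with a median of -0.07 (log2). Of 8 proximal genes used for regional scoring 4 were lower and 0 higher, with a median of -1.71. Of 7 distal scoring genes 6 were lower and 0 higher, with a median of -3.90.

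Lgr5, the receptor that marks crypt base stem cells, was present in 19.6% of members (95% interval 14.9 to 25.1), against 100% of Gkn3 stem cells, whose choice used it, 33.3% of all other cells and 2.40% of duodenal enterocytes. The share in duodenal enterocytes stands for background. Outside the stomach-led cluster it was 22.3%, and in the cluster 1 of 35 members had it. Smoc2, another crypt base gene, was present in 53.2% of members and 44.4% of all other cells. Mki67, a protein of dividing cells, was present in 48.8% of members (42.5 to 55.2) and 4% of duodenal enterocytes. It was present in 36.9% of all other cells, 26.8% of Gkn3 stem cells and 52.4% of the matched cells described below. Without the 35 the share of members with Mki67 was 54.4%, and within the 35 it was 14.3%. Median detected genes were 2561 in members, 2572 in Gkn3 stem cells, 2386.5 in duodenal enterocytes and 2212 in all other cells, and the shares were not thinned to 1 depth because the deposited values are not molecule counts.

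**Figure D3:**
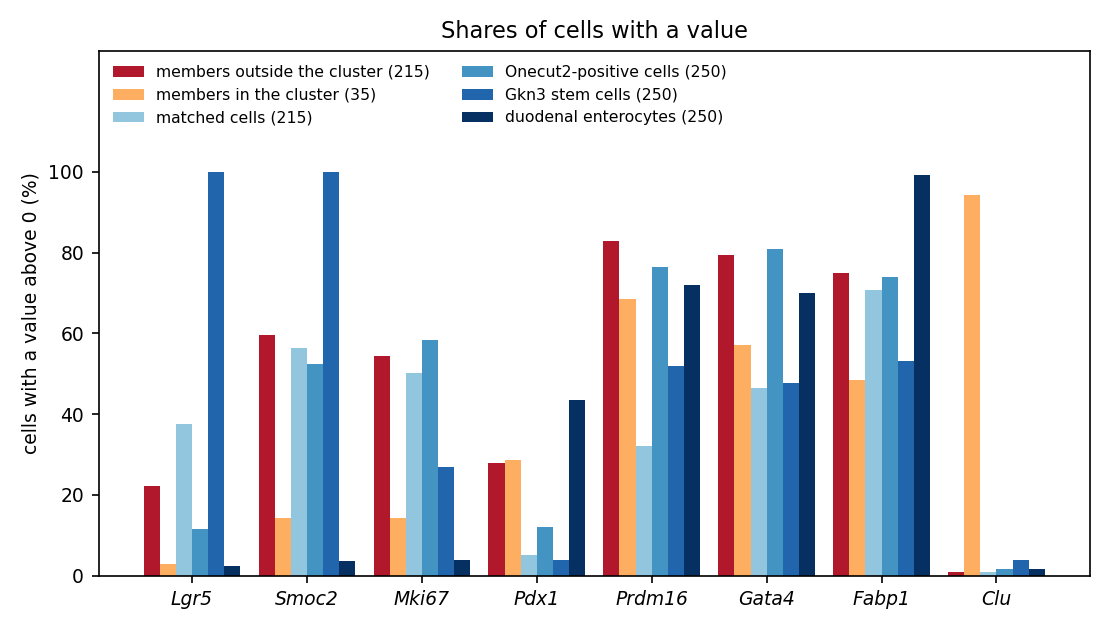
Percent of cells with a value above 0 for 8 genes in 6 groups, members first. Members outside the stomach-led cluster carried Mki67 in 54.4% of cells and Lgr5 in 22.3%, Pdx1 in 27.9% against 5.12% of matched cells, and Clu almost only within the cluster.

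The members did not form a cluster of their own. At resolution 1, 55 fell in a cluster led by the G1/S genes Ung, Cdt1 and Mcm4, and 23 in 1 led by the mitotic genes Ccnb1, Cdc20 and Ube2c. Another 25 lay with cells led by Ros1, Reg1 and Adh1, at a median crypt score of -0.83. A further 25 lay with cells led by Fstl1, Slc1a2 and Gkn3, at a median of 0.78. Most of the rest were in 2 clusters, of 40 and 30 members, led mainly by long noncoding and extracellular matrix gene names.

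To ask how members differ from crypt cells without Meis2, each was paired with a cell of the same barcode set that had Meis2 and the 3 excluded genes at 0 and was nearest in crypt score and detected genes. The pairing held: median crypt scores were 0.097 in members and 0.099 in matched cells, and median detected genes 2561 and 2584.5. The genes behind the score and the rule were set aside. A gene was called when its mean over both groups reached 10 ppm, its log2 difference (ppm + 1) was at least 1 in size and its direction was the same in every barcode set with 10 or more cells of each group. Of 9532 genes considered, 123 were called higher (1.29%) and 73 lower (0.766%) in the 250 members. The median difference over all genes was -0.013 (log2).

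The largest differences upward in the 250 members rested on the 35 cells of the stomach-led cluster. The 12 largest were Wfdc18, Clu, Tff2, Car2, Sptssb, Mal, Efna5, Cbr3, Muc1, Fut2, Pik3c2g and Ano1. Clu, a secreted chaperone, was 377 ppm in members and 1.99 ppm in matched cells (log2 6.98). In the 215 members outside the cluster Clu was 1.61 ppm, and 1.56 ppm in their matched cells. Wfdc18, Cbr3 and Fut2 were at 126, 34.1 and 24.6 ppm in members and were listed at 0 in matched cells. Removing the 35 members and their partners left 97 genes higher (1.04%) and 144 lower (1.54%) of 9357 considered, over sets 1, 2, 3 and 7. Fewer sets then had to agree, 4 in place of 6, and genes with 1 direction in every set made up 17.5% in place of 7.02%, so the counts are not of the same form. Of the 123 higher calls 43 remained (34.96%), and of the 73 lower calls 55 (75.3%).

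In the 215 members outside the cluster, the higher genes were led by Plut, Cnnm1, Pdx1, Pcsk6, Ddo, Rbms3, Pls3, Papss2, Kcnk10, Slc40a1, 2210407C18Rik and Ptprm. Papss2, which makes the sulfate donor PAPS, was 211 ppm in these members and 44.5 ppm in matched cells (log2 2.22, SD 2.20 over 4 sets). Its matched cells were at 0 in set 7, where the difference was 6.64, and such zeros widen the SD. Pcsk6, a proprotein convertase, was 42.0 and 7.03 ppm (log2 2.42, SD 0.98). Ptprm, a receptor tyrosine phosphatase, was 98.4 and 25.8 ppm (log2 1.89, SD 0.45), with 90.6 to 139 ppm in the sets of members and 22.3 to 35.5 ppm in those of matched cells. Fgfr2, a fibroblast growth factor receptor chosen for mention after its values were seen, was called higher, with 1435, 2096, 1717 and 628 ppm in members of sets 1, 2, 3 and 7, against 253, 611, 540.1 and 488 ppm in matched cells. The groups did not overlap, though set 7 differed by only 0.36 (log2), against 1.76 pooled. In the GENCODE annotation of GRCm38 Fgfr2 lies on the minus strand of chromosome 7, from 130162451 to 133123350. That span holds the whole of the rule marker Dmbt1, on the plus strand from 131032053 to 131121630. Members were chosen for high Dmbt1, and whether reads of Dmbt1 were assigned to Fgfr2 was not tested. Lack of overlap between sets is given here and below as a description. Its share over all genes is not given, and 17.5% of genes considered had 1 direction in all 4 sets. The lower genes were led by Fabp6, Mgat4c, Gsdmc2, Osr2, Bcl2l15, Gsdmc4, Suox and Grip1.

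Among 20 regional transcription factors considered, 2 were called higher and 4 lower in the 215 members, with a median difference of -0.28 (log2), against 0.01 over all genes. Pdx1, the homeobox factor of duodenum and pancreas, was 57.1, 56.2, 44.3 and 62.8 ppm in members of sets 1, 2, 3 and 7. In matched cells it was 0, 12.3, 11.6 and 0 ppm, so every set of members lay above every set of matched cells. Pooled, Pdx1 was 52.4 and 8.59 ppm (log2 2.48, SD 2.28 over 4 sets). It was present in 60 of the 215 members (27.9%), 5.12% of their matched cells and 0.963% of cells with Slc10a2, an ileal gene that marks cells expected to lack it. Median detected genes were 2557 in these members, 2549 in matched cells and 1993 in cells with Slc10a2.

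Plut, an antisense transcript beside Pdx1, moved with it: 70.2 ppm in the 215 members and 6.25 ppm in matched cells (log2 3.30, SD 1.85). In the GENCODE annotation of GRCm38 Pdx1 lies on the plus strand of chromosome 5, from 147269959 to 147275848, and Plut on the minus strand, from 147228596 to 147271521, so the genes overlap. No source used here states whether counting used strand, and reads of the overlap may have been assigned to either gene. Gata4, a zinc-finger factor of the proximal intestine, was 228, 434, 399 and 305 ppm in members of sets 1, 2, 3 and 7, against 134, 193, 193 and 88.8 ppm in matched cells. Pooled it was 386 and 173 ppm (log2 1.15, SD 0.42), without overlap between the sets.

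Among the 4 lower factors, Osr2, a zinc-finger factor, was 0, 3.12, 0 and 0 ppm in members and 66.9, 38.3, 69.4 and 71.0 ppm in matched cells. Hoxb6, a HOX gene, was 2.42 and 18.8 ppm pooled, and Nr1h4, the bile acid receptor, 50.8 and 139 ppm (log2 -1.43, SD 0.36). In these 3 genes the sets of members lay below those of matched cells. The other 14 factors were not called. Hnf4a was 316 ppm in members and 314 ppm in matched cells, Cdx2, the intestinal master factor, 54.1 and 64.1 ppm, and Gata6 104 and 130.5 ppm.

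With all 250 members Pdx1 (log2 2.496), Gata4 (1.01), Osr2 (-3.82) and Nr1h4 (-1.30) were also called, and Hoxb6 (-2.95) was not called because 1 set had it at 0 in both groups. Gata4 lay at the threshold: of its alternatives in the 250 members 11 held the call, 8 fell short of it and 1 reversed the sign. For Nr1h4 15 held the call and 5 fell short.

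Of 5 TALE homeobox genes considered in the 215 members, only Pbx3 was called, with 196, 258, 197 and 126 ppm in members of sets 1, 2, 3 and 7, against 163, 115, 69.4 and 44.4 ppm in matched cells. The groups overlapped, and the pooled difference was 1.16 (log2, SD 0.58). Pbx3 was also the 1 called of 6 in the 250 members. Pknox1 was 29.9 and 26.6 ppm, Pbx2 19.4 and 14.1 ppm, and Tgif1 34.7 and 39.1 ppm. Meis1, the nearest relative of Meis2, was present in 1 of the 215 members but in 21 of the 35 in the stomach-led cluster. Prdm16, a zinc-finger regulator that was chosen for mention after its values were seen, was 334, 349.8, 383 and 251 ppm in members of the 4 sets and 52.0, 112, 104 and 107 ppm in matched cells. It was called (log2 1.85, SD 0.60), and no set overlapped.

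The 300 bases around the start of Meis2 and of Pdx1 are shown because Meis2 defines the members and Pdx1 was the regional factor with the largest difference upward. They are RefSeq windows on GRCm38.p6, 250 bases before to 50 after the start: chr2:116064570-116064869 on the minus strand for Meis2 and chr5:147269847-147270146 on the plus strand for Pdx1. Capitals mark a match to a MEIS hexamer (TGACAG, or CTGTCA on the other strand), an Onecut core (ATCAAT or ATTGAT) or a CDX core (TTTATG or CATAAA).
Meis2: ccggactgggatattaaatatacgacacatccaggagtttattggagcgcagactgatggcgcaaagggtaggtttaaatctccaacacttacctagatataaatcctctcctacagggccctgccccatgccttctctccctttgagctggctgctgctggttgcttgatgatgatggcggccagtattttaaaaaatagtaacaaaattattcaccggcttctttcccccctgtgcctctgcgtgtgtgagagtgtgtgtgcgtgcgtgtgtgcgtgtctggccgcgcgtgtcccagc
Pdx1: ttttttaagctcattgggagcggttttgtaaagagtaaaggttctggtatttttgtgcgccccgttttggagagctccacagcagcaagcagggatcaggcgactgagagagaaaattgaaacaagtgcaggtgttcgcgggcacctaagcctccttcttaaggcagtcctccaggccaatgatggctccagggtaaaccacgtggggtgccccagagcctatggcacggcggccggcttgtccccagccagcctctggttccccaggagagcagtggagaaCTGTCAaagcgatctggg
The Pdx1 window holds 1 MEIS hexamer, 33 bases into the transcript, and the Meis2 window holds none of the 3 motifs. The windows of Slc1a3, Rflnb, Prdm16 and Plut, also searched, hold none of them either. The hexamer occurs in 19.2% of 32851 promoter windows, the Onecut core in 7.54% and the CDX core in 11.85%. Of the 12 named higher genes, 11 have a window, and 2, 0 and 1 of these hold the hexamer, the Onecut core and the CDX core.

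**Figure D4:**
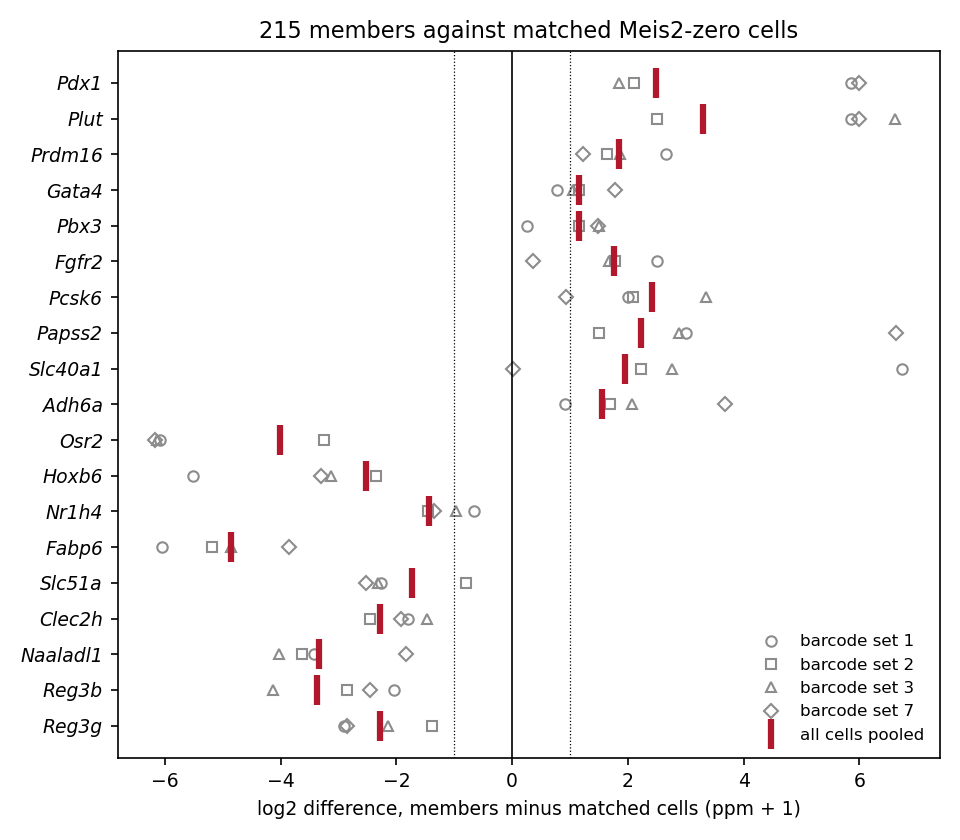
Log2 difference (ppm + 1) between the 215 members outside the stomach-led cluster and their matched Meis2-zero cells, for 19 genes: grey symbols are barcode sets 1, 2, 3 and 7, red bars the pooled value, and dotted lines the threshold of 1. Pdx1, Prdm16 and Gata4 lie to the right in every set, and Osr2 and Fabp6 to the left.

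Of 8 distal uptake genes considered, 6 were called lower in the 215 members and 0 higher, with a median of -2.31 (log2). In the 250 members 4 of 6 were called lower, with a median of -2.15. Fabp6, the ileal bile acid binding protein, was 24.5, 37.5, 76.6 and 260.1 ppm in members of sets 1, 2, 3 and 7, against 1679, 1399, 2249 and 3755 ppm in matched cells. Set 7 was highest in both groups, and the groups did not overlap (log2 -4.85 pooled, SD 0.91). Slc51a and Slc51b, the basolateral bile acid exporter pair, were 25.8 and 12.9 ppm in members and 88.3 and 74.996 ppm in matched cells. Mep1a, a brush border metalloprotease, was 9.68 and 62.5 ppm. Guca2a and Xpnpep2 were the other genes called.

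Genes of proximal uptake differed less. Of 7 considered, Slc40a1, the iron exporter ferroportin, was the 1 called higher, with 69.4 ppm in the 215 members and 17.2 ppm in matched cells (log2 1.95, SD 2.80). Its difference was 6.74 in set 1, where matched cells were at 0, and 0.01 in set 7. The list's median was 0.24. In the 250 members 0 of 7 were called, and Slc40a1 differed by 1.57, with set 5 at -0.54. Of 6 proximal genes used for regional scoring, Adh6a, an alcohol dehydrogenase, was called higher, with 209.8 and 71.1 ppm. Of 6 distal scoring genes, Clec2h and Naaladl1 were called lower, Naaladl1 with 9.68 and 106 ppm. A regional score built from both lists favoured proximal genes in 47.9% of the 215 members and 19.5% of matched cells, and distal genes in 22.8% and 53.5%.

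Of 9 mucosal defence genes considered, 5 were called lower in the 215 members, Reg3a, Reg3b, Reg3g, Lgals3 and Duox2, and 0 higher, with a median of -1.58 (log2). In the 250 members 3 of 10 were called lower, Reg3a, Reg3b and Reg3g, with a median of -0.39. Reg3b, an antimicrobial lectin, was 294, 109, 96.7 and 619 ppm in members of sets 1, 2, 3 and 7, against 1203, 796, 1701 and 3399.7 ppm in matched cells. The sets did not overlap (log2 -3.38 pooled, SD 0.90). Reg3g, its close relative, was 154 and 754 ppm (log2 -2.28, SD 0.72). Reg3 genes are similar in sequence, and reads may be split between them. Cd74, the MHC class II invariant chain, was 45.2 and 124 ppm, the 1 of 4 class II genes called, with 0 of 4 called in the 250.

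Glutamate handling was examined because Slc1a3 belongs to the rule. Of 11 genes considered in the 215 members, Slc1a2, a second glutamate transporter, was the 1 called, with 41.2 ppm in members and 14.8 ppm in matched cells (log2 1.41, SD 0.91), and with a difference of 0.01 in set 7. With all 250 members it was not called (log2 0.97). Slc1a1, the epithelial glutamate transporter, was 62.1 and 121 ppm, just short of a call (log2 -0.95), and was called lower in the 250 (log2 -1.13). The dehydrogenase Glud1 (186 and 222 ppm) and the synthetase Glul (28.2 and 29.7 ppm) were not called.

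Between the 215 members and matched cells, division and signalling lists gave 1 call. Of 19 G1/S genes and 16 G2/M genes considered, 0 were called in either direction, with medians of -0.03 and 0.19 (log2), against 0.01 over all genes. The rule holds Cdt1 and Hist1h1b at 0 in both groups, which limits S-phase cells in both. Mki67 was 261, 292, 214 and 188 ppm in members of sets 1, 2, 3 and 7 and 215, 261, 212 and 204 ppm in matched cells, so the groups overlapped. Of 6 Notch genes and 7 BMP genes 0 were called, and of 10 Wnt genes Ccnd1, a cyclin, was called lower (70.2 and 160.1 ppm). No goblet, Paneth, enteroendocrine or early secretory gene was called among the 7, 9, 10 and 3 considered. In the 250 members Zg16, a goblet cell lectin, and Defa21 and Defa22, Paneth cell defensins that are similar in sequence, were called lower (log2 -1.24, -1.37 and -1.23). The division, Notch, Wnt and BMP lists had 0 calls in the 250, with medians of -0.25 for G1/S and -0.15 for G2/M. Of 10 dissociation stress genes 0 were called, with a median of -0.70, further from 0 than the median over all genes. Over all 250 members it was -0.08.

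Lgr5 was lower in the 215 members although crypt scores were matched. It was 97.8, 158, 84.6 and 62.8 ppm in members of sets 1, 2, 3 and 7, against 565, 368, 235 and 355 ppm in matched cells. The sets did not overlap, and 22.3% of members and 37.7% of matched cells had it. Lgr5 is 1 of the 22 genes behind the match, so this is given with no call. Prom1, also of that list, ran the other way, with 227 and 148 ppm, and Smoc2 was 272 and 265 ppm.

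**Figure D5:**
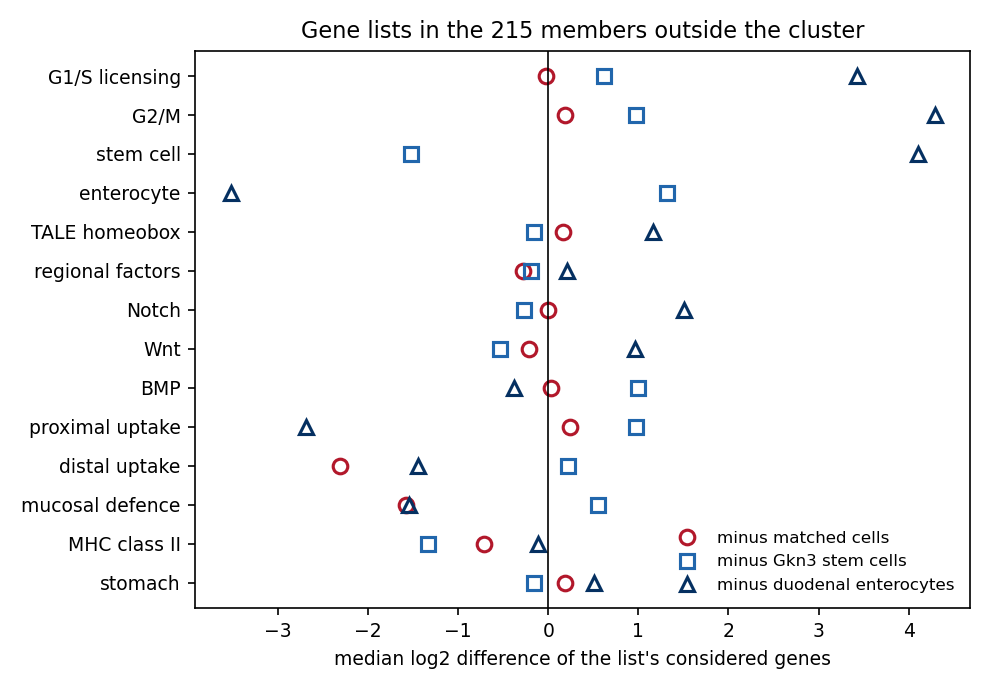
Median log2 difference of 14 gene lists between the 215 members outside the stomach-led cluster and 3 kinds of cell: matched Meis2-zero cells (circles; the stem cell and enterocyte lists served for matching and are not shown), Gkn3 stem cells (squares) and duodenal enterocytes (triangles). Against matched cells the division lists sit near 0 and distal uptake at -2.31; against duodenal enterocytes the G2/M list sits at 4.29 and the enterocyte list at -3.53.

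A closer comparison set the members against 250 cells with Onecut2 but no Meis2, chosen as the highest for Onecut2, Slc1a3, Rflnb and Dmbt1 under the same zeros. These cells resembled the members in crypt score (median 0.006), detected genes (2577.5) and Mki67 share (58.4%, against 54.4% of the 215 members). Of 9419 genes considered, 68 were called higher (0.722%) and 32 lower (0.340%) in the 215 members. Using all 250 members gave 132 higher (1.39%) and 21 lower (0.221%).

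Several genes called against matched cells were not called here. Fabp6 was 76.7 ppm in the 215 members and 50.9 ppm in the Onecut2-positive cells, Gata4 386 and 412.5 ppm, and Prdm16 349 and 301 ppm, all without a call. Of 4 distal uptake genes and 7 mucosal defence genes considered, 0 were called, with medians of 0.58 and -0.05 (log2). The low distal uptake and mucosal defence lists were thus not particular to the members. Reg3b was lower in members of sets 1, 2 and 3 but higher in set 7 (619 and 205 ppm). Pdx1 was still called higher, with 52.4 and 21.6 ppm (log2 1.24, SD 1.19), while Plut (70.2 and 25.8 ppm) had the same direction in 3 of 4 sets and was not called. The largest higher genes were Slc1a2 (41.2 and 6.97 ppm, log2 2.40, SD 1.19), Rbms3, Pls3 and Mecom, a zinc-finger factor with 662 and 159.6 ppm (log2 2.05, SD 0.43). Mecom was 457 to 725 ppm in the sets of members and 137 to 263 ppm in those of Onecut2-positive cells. Gkn3 was 99.2 and 29.3 ppm (log2 1.73, SD 0.35), and Reg1, a secreted lectin of proximal enterocytes, 631 and 192 ppm (log2 1.71, SD 1.19). Lgr5 was 117 and 39.7 ppm, higher in 3 of 4 sets and not called. Gsdmc4, a gasdermin, led the lower genes (3.23 and 24.4 ppm).

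Against Gkn3 stem cells, 401 genes were called higher (4.16%) and 441 lower (4.57%) of 9645 in the 215 members. The 250 members gave 353 higher (3.61%) and 403 lower (4.12%) of 9783. The Gkn3 cells were chosen as the highest for Gkn3, Lgr5, Ascl2, Smoc2 and Olfm4. A lower stem cell list in members was largely set by that choice and is a description. Of 17 stem cell genes considered apart from those that chose the Gkn3 cells, 14 were called lower and 0 higher, with a median of -1.52 (log2). Tnfrsf19, a receptor of crypt base cells, was 6.45 ppm in members and 119.6 ppm in Gkn3 stem cells (log2 -4.02, SD 1.503). Mex3a, an RNA-binding protein of slow-cycling stem cells, was 0.807 and 25.9 ppm. Of the division lists, 8 of 16 G2/M genes, among them Mki67, Ccnb1 and Cdk1, and 3 of 18 G1/S genes were called higher over 4 sets, and 0 of either list was lower. With all 250 members and 6 sets, 1 of 16 G2/M genes (Ccnb2) and 0 of 18 G1/S genes were called. Of 16 enterocyte genes 6 were called higher (Fabp1, Alpi, Sis, Reg1 and Mttp among them) and 1 lower, and in the 250 members 5 of 17 were higher and 0 lower. Reg1 was 631 and 37.8 ppm (log2 4.03, SD 1.76), Papss2 211 and 12.6 ppm, and Me1, malic enzyme, 51.6 and 2.10 ppm. Pdx1 (52.4 and 6.997 ppm) and Gata4 (386 and 143 ppm) were called higher in this comparison also.

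Against duodenal enterocytes the difference was broad, with 2297 genes called higher (25.1%) and 978 lower (10.7%) of 9149 in the 215 members. The 250 members gave 1745 higher (18.9%) and 831 lower (9.01%) of 9220. The median over all genes was itself 0.45 (log2), and list values are to be read against it. The duodenal enterocytes were chosen for high S100g and Reg1, while the rule holds S100g at 0 in members. Lower enterocyte and proximal uptake genes in members were therefore largely set by the choice of groups. All 17 stem cell genes and 14 G2/M genes considered were called higher, with medians of 4.10 and 4.29. In the 250 members 15 of 17 and 10 of 14 were called. Smoc2 was 272 ppm in members and 6.52 ppm in duodenal enterocytes. Of 16 enterocyte genes 15 were called lower, with a median of -3.53, and all 8 proximal uptake genes were lower, with a median of -2.69. Apoc2, an apolipoprotein, was 45.2 and 4325 ppm, and Leap2, a secreted peptide, 5.65 and 467 ppm. The regional factors divided: Pdx1 was 52.4 and 83.4 ppm, a difference of -0.66 that was not called, Gata4 386 and 216 ppm (log2 0.83, not called) and Hnf4a 316 and 133 ppm (log2 1.24, called).

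Within the 215 members the crypt score ordered several genes that took no part in it. Spearman correlations across these cells, which share libraries and depth and are given without a test, were -0.60 for the proximal uptake list, -0.63 for mucosal defence genes, 0.52 for TALE homeobox genes and 0.38 for G1/S genes. Detected genes had a correlation of 0.06 with the score. Among the rule genes, Slc1a3 ran with the crypt score (0.37), and Rflnb (-0.30) and Dmbt1 (-0.23) against it, while Meis2 (0.003) and Onecut2 (-0.09) showed no trend. These genes chose the members, and their values are a description.

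The genes whose pattern was most like that of Meis2 were sought over the 16830 cells with S100g, Cdt1 and Hist1h1b at 0, by Spearman correlation of log1p values, among 12396 genes present in at least 1% of them. Plut (0.22), Pdx1 (0.22), Onecut2 (0.21), Prdm16 (0.20) and Pcsk6 (0.18) came first. Without the stomach-led cluster (16725 cells) the first 5 were Onecut2 (0.20), Prdm16 (0.19), Pdx1 (0.18), Plut (0.18) and Dmbt1 (0.14). All these correlations are weak, as sparse values allow, and Onecut2 and Dmbt1 belong to the rule. Pik3c2g and Clu, at 0.18 and 0.17 with that cluster, were at 0.04 and 0.01 without it.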

How the data were processed

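Single epithelial cells were profiled by droplet RNA sequencing. Cell Ranger and mm10 are named in the submitters' processing notes, with no order or settings. The deposited table was treated as a score, because 25.3% of cells held more 2s than 1s. Its values are therefore not molecule counts, and no count model or interval on expression was used. Cell totals ran from 2764 to 9739 (median 5503). From these values pooled ppm and differences of log2(ppm + 1) were computed with Python 3.11.15, numpy 2.4.6, scipy 1.17.1 and pandas 2.3.3. Clusters used scanpy 1.11.5 and leidenalg 0.10.2 (2000 variable genes, 30 components, 15 neighbours). The call rule was run on simulated counts with known fold changes and no differences between barcode sets. The deposited values are not counts, so that run gives no error rate for the calls here. Genes named are the markers, members of the gene lists, the 12 largest higher and 8 largest lower calls against matched cells, and the 5 largest each way against duodenal enterocytes and Gkn3 stem cells; the calls outside the stomach-led cluster and against Onecut2-positive cells, up to 12 higher, and Prdm16 and Fgfr2 were added after seeing values. The members and lists were chosen with earlier results of these data known, and the split of the 35 members was chosen after seeing the data. Alternatives varied the pseudocount, the level filter, the number of members, the reference and the barcode sets. The other 4 samples were not analysed here. Some genes of the lists are not reported here.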

Additional observations from a re-analysis of the deposited data

Results flagged for a closer look

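With all 250 members against matched cells, 4 of 23 list medians had 1 barcode set far from the other 5, and in each it was set 8, which has 12 members, 6 of them in the stomach-led cluster. Chance flags about 1 in 20 such groups if they are independent, but these lists share cells and barcode sets. The G2/M median was -3.11 (log2) in set 8, and the nearest other set was at -1.01. The Paneth median was -3.31, and the nearest was -1.17. The proximal scoring genes stood at 4.74, and the nearest set at 1.62. The proximal uptake genes stood at 2.48, and the nearest at 0.72.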

How the results depend on the processing

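No paired analysis was possible because no result comes from a test. Calls check the direction of a difference within barcode sets, but its size comes from levels pooled over sets. Matched cells were as many as members in each set. Duodenal enterocytes and Gkn3 stem cells were not: set 2 held 120 members, 24 duodenal enterocytes and 63 Gkn3 stem cells. Onecut2-positive cells were also chosen without regard to barcode set. Pooled differences against these references can therefore also hold differences between sets. Values below are genes called in members, higher then lower. Against matched cells, 123 and 73 became 39 and 36 at 50 ppm or more, 290 and 269 with 100 members, and 44 and 39 with 500 members. The lower count was 45 at a pseudocount of 10, 47 when also matched on the regional score, 21 against Onecut2-positive cells and 144 outside the stomach-led cluster. Leaving out each barcode set gave 120 to 206 higher and 72 to 118 lower, the highest of both without set 2. Against duodenal enterocytes the counts were 853 and 502 at 50 ppm, 809 and 504 with 500 members, and 1758 to 2073 and 834 to 909 leaving out sets. Against Gkn3 stem cells they were 180 and 178 at 50 ppm, 641 lower with 100 members, and 347 to 449 and 402 to 533 leaving out sets. Foxa1 reversed to -1.50 (log2) with 100 members. Against Onecut2-positive cells Fabp6 reversed to 0.44, Mgat4c to 0.92 and Gata4 to -0.22. Outside the stomach-led cluster, chosen after seeing the data, Tff2 reversed to -0.78, Mal to -0.83, Efna5 to -0.83 and Ano1 to -0.36 against matched cells, Clu to -0.46 and Tff2 to -0.64 against duodenal enterocytes, and Tff2 to -0.32 and Efna5 to -0.77 against Gkn3 stem cells. The cause was not tested.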
